A study of Homo sapiens with 4 samples.

Results

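The 10 genes described here encode the core of the microRNA (miRNA) and small interfering RNA (siRNA) silencing pathway: *DROSHA*, *DGCR8*, *XPO5*, *DICER1*, *TARBP2*, *PRKRA*, *AGO2*, *TNRC6A*, *TNRC6B* and *TNRC6C*. They were chosen by gene symbol, and all 10 were found among the 20457 features of each table. RNA was sequenced from HEK293 cells, an established line of human embryonic kidney origin. In 2 libraries the cells had received siRNA against *CNOT4*, which encodes an E3 ubiquitin ligase of the CCR4-NOT deadenylase complex, and are labelled as a *CNOT4* knockdown (siCNOT4). In the other 2 the cells were labelled WT and had received a negative control siRNA (siControl). The dose was 10 nM and the time 72 h in both groups, so cells of both groups carried a synthetic siRNA. Nothing in the labels says that libraries of a group came from separate cultures, so p-values measure only the spread between these libraries, which may be technical.

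Silencing by small RNAs proceeds in stages. In the nucleus the Microprocessor, made of the RNase III enzyme DROSHA and its RNA-binding partner DGCR8, cuts hairpins out of primary miRNA transcripts, and exportin-5 (XPO5) carries these precursors to the cytoplasm. There the RNase III enzyme DICER1, bound to TARBP2 or PRKRA, cuts them to short duplexes. One strand is loaded into an Argonaute protein, of which AGO2 is the one known for slicing targets, and a TNRC6 protein binds Argonaute and recruits the PAN2-PAN3 and CCR4-NOT deadenylases to the target mRNA.

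*DGCR8* mRNA is itself a known substrate of the Microprocessor, which cuts hairpins near the start of its coding sequence. Both miRNA loci listed in the tables at this place, *MIR3618* and *MIR1306*, lie in exon 2 of *DGCR8* on the plus strand of chromosome 22. Their mature sequences are shown because they mark the part of the *DGCR8* transcript where the mRNA and the miRNA features overlap. They are taken from RefSeq (GRCh38.p14) and written 5′ to 3′, with the seed (bases 2 to 8) in capitals.
hsa-miR-3618: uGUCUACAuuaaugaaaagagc
hsa-miR-1306-5p: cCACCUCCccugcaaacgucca
hsa-miR-1306-3p: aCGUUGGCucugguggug
The seeds of all 3 differ. In the *DGCR8* transcript model examined (GENCODE 29), hsa-miR-3618 (20085797 to 20085818) falls in the 5′ untranslated region, while hsa-miR-1306-5p (20086072 to 20086093) and hsa-miR-1306-3p (20086112 to 20086129) fall in the coding sequence.

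Values are TPM, a transcript level per length that the authors scaled to a fixed sum in each library, so levels of different genes can be set side by side. The ratios of TPM values between libraries were those of whole reads for 99.7% of the 14208 features whose TPM averaged 1 or more. Depth estimated with GENCODE lengths was between 32.5 and 34.5 per library, in units of 1e6 reads. Groups were compared with limma on log2(TPM + 1), and p-values were adjusted over these 14208 tested features. With this pseudocount, fold changes of genes with low TPM are understated. The median log2 fold change of all tested features, siCNOT4 over siControl, was 0.50, so a gene at 0.50 moved no more than the typical feature. The targeted *CNOT4* had 6.43 and 4.73 TPM (449 and 375 reads) in siControl and 3.38 and 3.81 TPM (225 and 250 reads) in siCNOT4, with a log2 fold change of -0.51 and a limma adjusted p of 0.184. It was called lower after TMM scaling (-0.95, limma adjusted p 0.0357), quantile normalization (-1.15, adjusted p 0.0252), median centring (-1.07, adjusted p 0.0414) and trend removal (-1.31, adjusted p 0.0128), and with limma-voom on the recovered reads (-1.17, adjusted p 0.0259). Of the HEK293 markers, *VIM* had 917 and 650 TPM in siControl against 369 and 354 in siCNOT4, and *NEFL* 384 and 346 against 336 and 307. *KRT8* had 303 and 360 TPM against 311 and 345, *KRT18* was higher in siCNOT4 with 197 and 193 against 246 and 264, *PAX2* had between 1.10 and 1.91 TPM and *NEFM* was under 1 TPM in every library. Summed over 3 genes each, endothelial markers and hepatocyte and keratinocyte markers were at most 0.412 TPM in every library. Leukocyte markers ranged from 22.0 to 30.8 TPM, nearly all of it the lysosomal gene *CD68*. Fibroblast markers summed to 1.44 and 0.906 TPM in siControl and 5.33 and 6.81 TPM in siCNOT4, nearly all of it *COL1A1*, while *COL1A2* and *DCN* were at most 0.226 TPM in every library. The part of these markers in the results below was not tested.

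At a limma adjusted p under 0.05, none of the 10 silencing genes was called in either direction, whereas 11.3% of all tested features were called higher and 1.30% lower in siCNOT4. At an unadjusted p under 0.05, 5 of the 10 were higher and 0 lower (*DICER1*, *AGO2*, *TNRC6A*, *TNRC6B* and *PRKRA*), against 38.0% of all tested features that were higher and 42.0% that differed in either direction. Both siCNOT4 libraries lay above both siControl libraries for 9 of the 10 genes, all but *XPO5*. The same was true of 66.4% of all tested features, while 10.6% had both siCNOT4 libraries below both siControl libraries, as 0 of the 10 did. The median log2 fold change of the 10 was 0.59, close to the 0.50 of all features, and 6 of the 10 lay above that median, as 50.0% of all features do. In these bulk libraries, fewer cells in a given state and less RNA per cell cannot be told apart.

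In the deposited TPM, the estimated log2 fold changes of the 10 genes ranged from 0.16 to 1.40. *DICER1*, *AGO2*, *TNRC6A* and *TNRC6B* had fold changes between 1.10 and 1.40 on the log2 scale, and *TNRC6C*, also of the TNRC6 family, 0.67. The Microprocessor genes, *TARBP2* and *PRKRA* lay between 0.39 and 0.51, near the median of all features, and *XPO5* lay below it at 0.16. The differences between these genes were not tested. The first 4 also differed 2.02- to 3.18-fold between the siControl replicates, against 0.976- to 1.82-fold for the other 6, which the plot of TPM by library shows. Over all tested features, siControl replicate 1 minus replicate 2 had a median of 0.38 in log2(TPM + 1), and of 0.86 in the longest of 10 length bins.

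**Figure D1:**
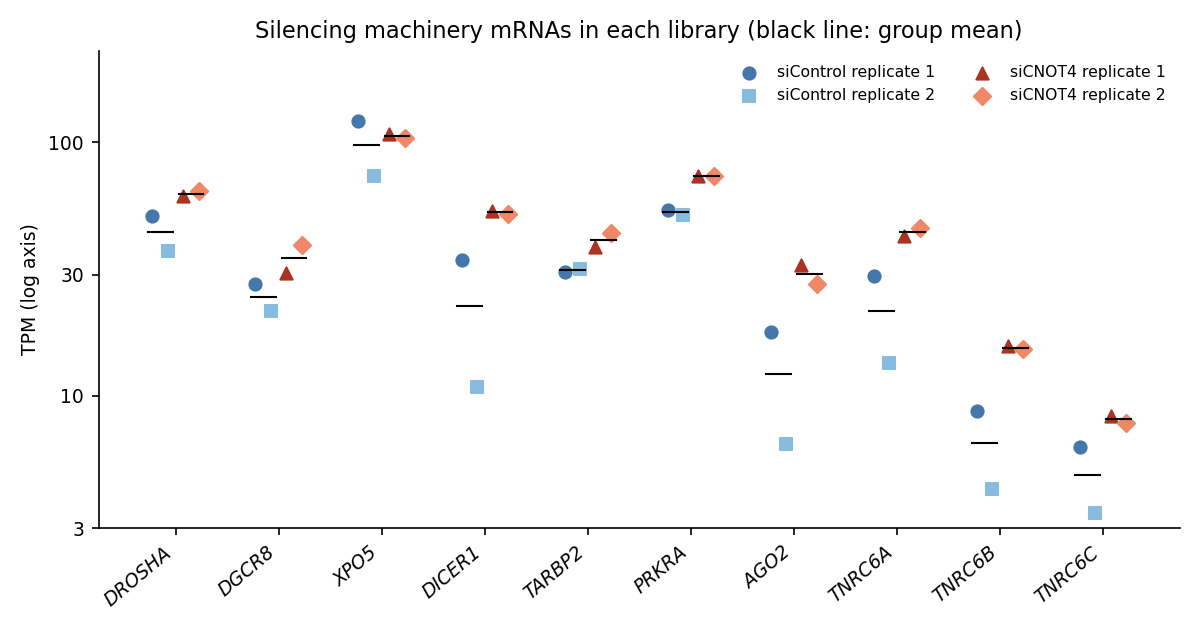
TPM (log axis) of each silencing gene in the 4 libraries, with a black line at each group mean (n = 2 libraries). The siControl replicates are far apart for *DICER1* (34.4 and 10.8 TPM) and *AGO2* (17.9 and 6.43 TPM) and close for *PRKRA* (54.3 and 51.5 TPM). The siCNOT4 libraries lie above both siControl libraries for every gene but *XPO5*, as they do for 66.4% of all tested features.

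*DROSHA* (chromosome 5, 31400497 to 31532196, GRCh38) had 51.0 and 37.3 TPM in siControl and 61.5 and 64.0 TPM in siCNOT4. Both siCNOT4 libraries were higher, and the group ranges did not overlap. The means were 44.2 ± 9.68 and 62.8 ± 1.75 TPM (SD, n = 2 each), and the log2 fold change was 0.51 (SE 0.22, limma adjusted p 0.126). *DGCR8* (chromosome 22, 20080232 to 20111877) had 27.7 and 21.6 TPM in siControl and 30.6 and 39.5 TPM in siCNOT4. Here too the siCNOT4 libraries were higher without overlap, but siCNOT4 replicate 1 was much closer to siControl replicate 1 than to siCNOT4 replicate 2. The means were 24.6 ± 4.33 and 35.1 ± 6.30 TPM (SD, n = 2 each), 0.49 apart in log2(TPM + 1) (SE 0.25, limma adjusted p 0.180). Both changes were positive for TPM as deposited and after quantile normalization (0.13 and 0.0073) and negative after TMM scaling, which uses a trimmed mean of log ratios (-0.026 and -0.041), after median centring (-0.049 and -0.071) and once each library's trend with length and GC content was removed (-0.15 and -0.020).

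The balance of the Microprocessor mRNAs does not depend on how a library is scaled. *DROSHA* was present at 1.84 and 1.73 times the TPM of *DGCR8* in siControl and at 2.01 and 1.62 times in siCNOT4. The siCNOT4 ratios lay on either side of the siControl ratios, so no shift between the 2 subunits was visible (exact two-sided permutation p = 1). This and the other ratios between genes were chosen after the values had been seen. How often ratios of other gene pairs lie apart between the groups was not tested.

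The miRNA features inside *DGCR8* rest on few reads. *MIR3618* had 10.5 and 3.86 TPM in siControl (12 and 5 reads) and 14.7 and 28.0 TPM in siCNOT4 (16 and 30 reads). Both siCNOT4 libraries were higher, yet siCNOT4 replicate 2 stood well above replicate 1, and the log2 fold change of 1.51 had a limma adjusted p of 0.0810. *MIR1306* had 40.9 and 32.8 TPM (45 and 41 reads) against 42.9 and 71.4 TPM (45 and 74 reads), a log2 fold change of 0.58 (limma adjusted p 0.168). Its TPM was 1.47 and 1.52 times that of *DGCR8* in siControl and 1.40 and 1.81 times in siCNOT4, so it tracked its host with overlapping ranges. *MIR3618* stood at 0.380 and 0.179 times the TPM of *DGCR8* in siControl and at 0.481 and 0.707 times in siCNOT4, without overlap (exact two-sided permutation p = 0.333, the smallest this design can give). The libraries were poly(A)-selected, and reads of *DGCR8* mRNA and of the miRNA precursors cannot be told apart here. How the authors' counting divided them is not given in the sources used here.

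*XPO5* (chromosome 6, 43522330 to 43576075) was the most abundant of the 10 mRNAs in both groups. It had 122 and 73.9 TPM in siControl and 108 and 104 TPM in siCNOT4. The siCNOT4 libraries fell between the siControl libraries, so the groups overlapped. The means were 97.8 ± 33.7 and 106 ± 2.72 TPM (SD, n = 2 each), and the log2 fold change was 0.16 (SE 0.25, limma adjusted p 0.649), which is 0.34 below the median of all features. It was negative after TMM scaling (-0.39), quantile normalization (-0.15) and median centring (-0.41), and also without siControl replicate 2 (-0.20). With the length and GC trend removed it was -0.46 with a limma adjusted p of 0.0302, the only one of the 10 genes called under that alternative, where 12.2% of features were called higher and 13.1% lower. Per unit of *DROSHA*, which precedes it in the pathway, *XPO5* stood at 2.38 and 1.98 in siControl and at 1.75 and 1.62 in siCNOT4, without overlap (exact two-sided permutation p = 0.333).

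*DICER1* (chromosome 14, 95086228 to 95158010) had 34.4 and 10.8 TPM in siControl and 53.6 and 52.2 TPM in siCNOT4. The siCNOT4 replicates were nearly equal and above both siControl libraries, which themselves differed 3.18-fold. Counting error does not cover that difference: the smallest whole reads that fit were 4727 and 1685, which put the ratio of the siControl libraries between 3.01 and 3.37 (exact interval at 95%, counting error only). The means were 22.6 ± 16.7 and 52.9 ± 0.955 TPM (SD, n = 2 each). Their ratio was 2.34 and the log2 fold change 1.40 (SE 0.49, limma adjusted p 0.0894). The difference between the siControl replicates, 1.58 on the same scale, exceeded the difference between the groups. Without siControl replicate 2 the fold change was 0.61 (limma adjusted p 0.00243) and without siControl replicate 1 it was 2.19 (limma adjusted p 5.5e-05). In both of those fits the lone siControl library is assumed to vary like the siCNOT4 libraries.

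The genes of the double-stranded RNA-binding partners of DICER1 had smaller fold changes than *DICER1* in the deposited TPM, a difference that was not tested. *TARBP2* (chromosome 12, 53500921 to 53506431) had 30.9 and 31.7 TPM in siControl and 38.8 and 43.9 TPM in siCNOT4, which is 0.39 on the log2 scale (SE 0.20, limma adjusted p 0.186). *PRKRA* (chromosome 2, 178431414 to 178451512), also known as an activator of the kinase PKR, had 54.3 and 51.5 TPM in the siControl libraries and 73.6 and 73.9 TPM in siCNOT4. It had the smallest SE of the 10 genes, and differed by 0.47 on that scale (SE 0.17, limma adjusted p 0.0953). The siControl and siCNOT4 means were 31.3 ± 0.542 and 41.3 ± 3.60 TPM for *TARBP2* and 52.9 ± 1.94 and 73.7 ± 0.252 TPM for *PRKRA* (SD, n = 2 each). For both genes the siControl replicates were close and the siCNOT4 libraries higher without overlap, but the direction turned after TMM scaling (-0.15 and -0.070) and median centring (-0.17 and -0.090), and for *TARBP2* also after quantile normalization (-0.052). With the length and GC trend removed both stayed positive (0.26 for *TARBP2*, limma adjusted p 0.0975, and 0.071 for *PRKRA*). *DICER1* was then at 0.41 (limma adjusted p 0.208). *PRKRA* made up 63.7% and 61.9% of the summed TPM of the pair in siControl and 65.5% and 62.7% in siCNOT4. Those ranges overlapped (exact two-sided permutation p = 0.667).

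*DICER1* was also set against each partner. In siControl there were 1.11 and 0.341 units of *DICER1* for each unit of *TARBP2*, and in siCNOT4 1.38 and 1.19 units. For *PRKRA* the values were 0.634 and 0.210 against 0.728 and 0.707. Neither ratio overlapped between the groups (exact two-sided permutation p = 0.333 for each), but siControl replicate 1 lay closer to the siCNOT4 libraries than to siControl replicate 2 in both. The longest transcript of *DICER1* is 10331 nt, against 1867 nt for *TARBP2* and 1826 nt for *PRKRA*. Such ratios carry any trend of a library with length, and its part in them was not tested. In the order of mean TPM, *DICER1* stood 6th in siControl, where its range overlapped those of *DGCR8* above it and *TNRC6A* below it. In siCNOT4 it stood 4th, apart from both neighbours. *XPO5*, *PRKRA* and *DROSHA* kept the first 3 places, and *AGO2*, *TNRC6B* and *TNRC6C* the last 3, in both groups. Ranges of neighbours overlapped in siControl from *DGCR8* down to *TNRC6C* and in siCNOT4 from *TNRC6A* down to *AGO2*.

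*AGO2* (chromosome 8, 140520156 to 140635619) had 17.9 and 6.43 TPM in siControl and 32.8 and 27.6 TPM in siCNOT4. Both siCNOT4 libraries were higher, and siControl replicate 2 was the lowest of the 4 by a wide margin. The means were 12.2 ± 8.13 and 30.2 ± 3.70 TPM (SD, n = 2 each), with a ratio of 2.48, and the log2 fold change 1.39 (SE 0.46, limma adjusted p 0.0788). As with *DICER1*, the siControl replicates were far apart, here 2.79-fold. The counting interval was 2.45 to 3.18 from 813 and 331 reads, the smallest whole numbers that fit. Larger true counts would narrow it. The level of *AGO2* per unit of *DICER1* reached 0.521 and 0.595 in siControl against 0.613 and 0.528 in siCNOT4. The large differences of the 2 mRNAs between libraries thus went together. Over all tested features the median difference of siControl replicate 1 minus replicate 2 was 0.38 in log2(TPM + 1), and 0.86 in the longest of 10 length bins. How often other pairs of genes go together in this way was not tested. Leaving out siControl replicate 2 gave a fold change of 0.72 (limma adjusted p 0.00505) and leaving out siControl replicate 1 gave 2.07 (limma adjusted p 6.1e-05).

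The other 3 Argonaute genes, which lie side by side on chromosome 1, have products that bind miRNAs as AGO2 does. *AGO1* (35869808 to 35930528) had 19.3 and 9.66 TPM in siControl and 24.3 and 25.7 TPM in siCNOT4, 0.82 on the log2 scale (limma adjusted p 0.131). *AGO3* (35930718 to 36072500) had 7.98 and 3.84 TPM against 17.9 and 16.5 TPM. Its log2 fold change of 1.46 exceeded that of any of the 10 genes and missed the threshold narrowly (limma adjusted p 0.0508). *AGO4* (35808172 to 35857890) had 23.0 and 10.5 TPM against 22.7 and 22.5 TPM, with overlapping groups and a log2 fold change of 0.51 (limma adjusted p 0.326), which was negative after TMM scaling (-0.0081), quantile normalization (-0.059), median centring (-0.052) and trend removal (-0.27). *AGO1* was negative after trend removal (-0.062).

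In these 4 libraries the shares of the Argonaute mRNAs lay apart between the groups. *AGO4* made up 33.7% and 34.4% of the summed Argonaute TPM in siControl and 23.2% and 24.4% in siCNOT4. *AGO3* went the other way, from 11.7% and 12.6% to 18.3% and 17.9%. The shifts between groups, -10.2 and 5.91 percentage points, stood beside SDs within a group of at most 0.826, each from only 2 libraries. *AGO2* took 26.3% and 21.1% in siControl and 33.6% and 29.9% in siCNOT4, and *AGO1* 28.3% and 31.8% against 24.9% and 27.8%. For *AGO2* the difference of the means, 8.04 points, stood beside SDs of 3.63 and 2.62, and for *AGO1* -3.70 stood beside 2.43 and 2.07. None of the 4 shares overlapped between groups, and each had an exact two-sided permutation p of 0.333, the smallest possible with 2 libraries against 2. The shares of a library add up to the whole, so they are not separate observations. How often shares in other gene families lie apart was not tested. Shares within a library are unaffected by its scaling, but not by trends with length. The whole reads fit a counted length of 3500 nt for *AGO2*, 3645 nt for *AGO3* and 3530 nt for *AGO4*, or a multiple of these, against 7478 nt for *AGO1*. The counted lengths are therefore uncertain. The longest GENCODE transcripts, used in the trend removal, are 13708 nt (*AGO1*), 14581 nt (*AGO2*), 19687 nt (*AGO3*) and 7116 nt (*AGO4*). With the trend removed the log2 fold changes were -0.062, 0.51, 0.40 and -0.27 in that order. The part of length in these shares was not tested.

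**Figure D2:**
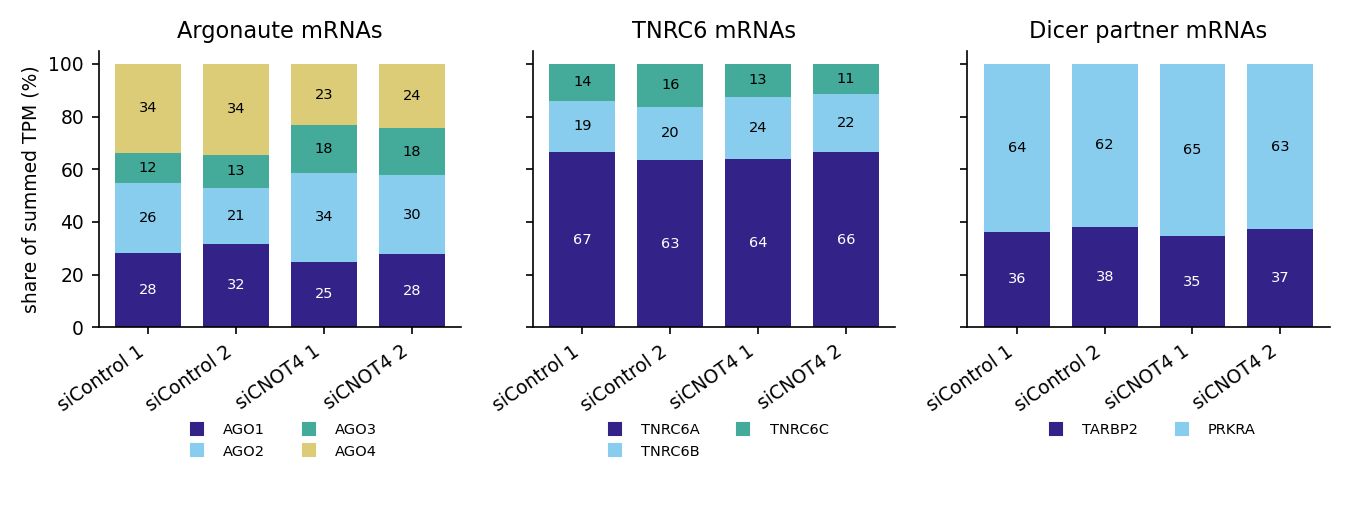
Share (%) of the summed TPM of each family held by its members in each library, for the Argonaute mRNAs, the TNRC6 mRNAs and the Dicer partners *TARBP2* and *PRKRA*, with rounded shares printed in the bars. The *AGO4* share is 33.7% and 34.4% in siControl and 23.2% and 24.4% in siCNOT4, while *TNRC6A* holds between 63.4% and 66.5% throughout.

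The TNRC6 proteins, also called GW182 proteins for their glycine-tryptophan repeats, link Argonaute to the deadenylases. *TNRC6A* (chromosome 16, 24610209 to 24827632) had 29.7 and 13.5 TPM in siControl and 42.7 and 45.7 TPM in siCNOT4, which is 1.10 on the log2 scale (SE 0.37, limma adjusted p 0.0834). *TNRC6B* (chromosome 22, 40044817 to 40335808) had 8.68 and 4.31 TPM against 15.7 and 15.3 TPM, and its log2 fold change of 1.20 (SE 0.36) had the lowest limma adjusted p of the 10 genes, 0.0672. *TNRC6C* (chromosome 17, 77959240 to 78108835) was the least abundant, with 6.27 and 3.45 TPM against 8.34 and 7.82 TPM and a difference of 0.67 in log2(TPM + 1) (SE 0.32, limma adjusted p 0.159). The means were 21.6 ± 11.5 and 44.2 ± 2.15 TPM for *TNRC6A*, 6.49 ± 3.09 and 15.5 ± 0.288 TPM for *TNRC6B* and 4.86 ± 1.99 and 8.08 ± 0.368 TPM for *TNRC6C* (SD, n = 2 each). All 3 were higher in both siCNOT4 libraries than in either siControl library, as were 66.4% of all tested features. All 3 were also lowest in siControl replicate 2. The median difference of siControl replicate 1 minus replicate 2 over all tested features was 0.38 in log2(TPM + 1). *TNRC6C* was slightly negative after trend removal (-0.072).

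Within the TNRC6 family the largest share hardly moved. *TNRC6A* held 66.5% and 63.4% of the summed TNRC6 TPM in siControl and 64.0% and 66.4% in siCNOT4, with overlapping ranges (exact two-sided permutation p = 1). *TNRC6B* held 19.4% and 20.3% against 23.5% and 22.2%, and *TNRC6C* 14.0% and 16.3% against 12.5% and 11.4%. These 2 shares moved by 3.01 and -3.22 percentage points, without overlap (exact two-sided permutation p = 0.333 for each). With the *TNRC6A* share nearly unchanged, a rise in one of them entails a fall in the other, so they are not separate observations. Their longest transcripts are 18279 nt (*TNRC6B*) and 9740 nt (*TNRC6C*), and the part of length was not tested. The TNRC6 genes summed to 44.7 and 21.2 TPM in siControl and to 66.7 and 68.8 TPM in siCNOT4, while that of the 4 Argonaute genes was 68.2 and 30.4 against 97.7 and 92.3. The ratio of the sums stayed between 0.655 and 0.746 in the 4 libraries, with overlapping groups.

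Relative to the median of all features, *DICER1* was higher in siCNOT4 by 0.90, *AGO2* by 0.89, *TNRC6B* by 0.70 and *TNRC6A* by 0.60. These 4 stayed positive after TMM scaling, quantile normalization, median centring and trend removal, and with limma-voom. Their size fell to 0.41, 0.51, 0.25 and 0.31 with the length and GC trend removed. The remaining alternatives could not turn the sign of these 4, because their groups did not overlap or the fit repeats the same fold change. *DROSHA*, *DGCR8*, *PRKRA* and *TARBP2* lay close to the median of all features, from -0.11 (*TARBP2*) to 0.013 (*DROSHA*), and *XPO5* was 0.34 below it. Counting only the sign, 5 of the 10 genes were above 0 after TMM scaling (50.6% of all features), 8 after quantile normalization (51.6%), 5 after median centring (45.4%), 6 with the trend removed (50.5%) and 5 with limma-voom on the recovered reads (50.7%). No gene of the 10 was called after TMM scaling, quantile normalization, median centring or with limma-voom, under which 4.43%, 7.11%, 1.72% and 5.92% of features were called higher and 4.33%, 8.23%, 2.10% and 5.74% lower. All 10 were called higher without siControl replicate 1, as were 70.9% of all features (8.73% were called lower). Without siControl replicate 2, 7 were called higher, all but *DGCR8*, *XPO5* and *TNRC6C*, beside 47.2% of all features higher and 10.3% lower. None was called without siCNOT4 replicate 1 (3.09% of all features higher, 0.260% lower) or 2 (2.91% and 0.260%).

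**Figure D3:**
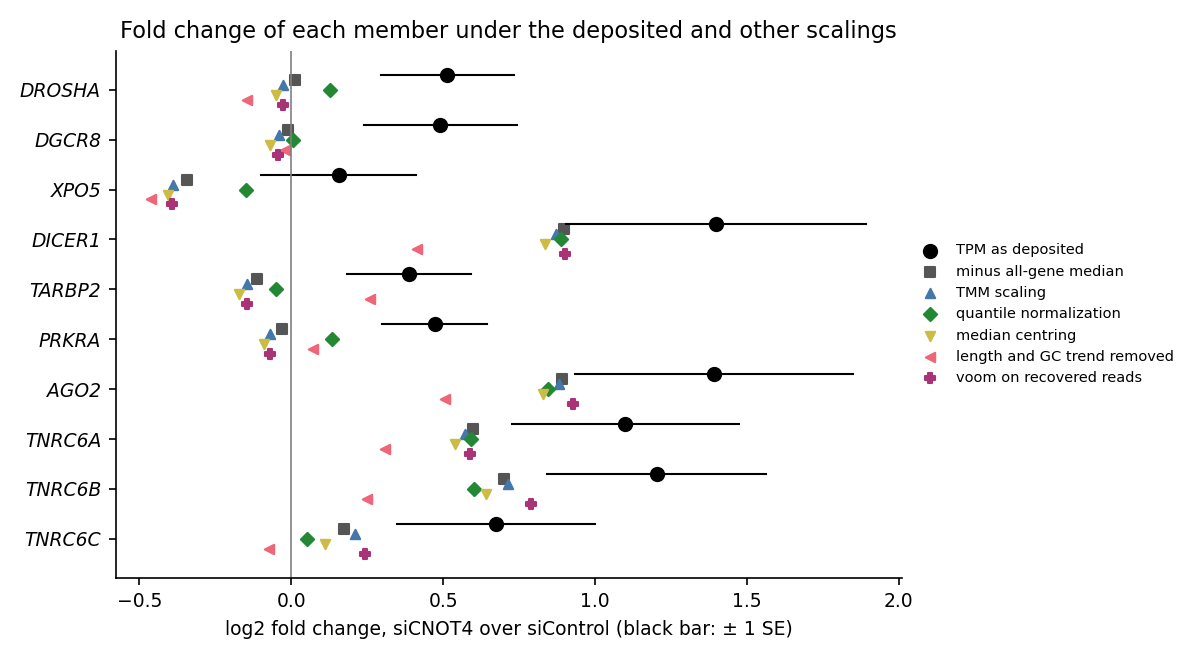
Log2 fold change of siCNOT4 over siControl for each silencing gene, for TPM as deposited (black, with ± 1 SE), after subtracting the all-feature median and under 5 other scalings or fits. *DICER1*, *AGO2*, *TNRC6A* and *TNRC6B* stay to the right of 0 in each, *XPO5* is left of 0 in all but the deposited scaling, and *DROSHA*, *DGCR8*, *TARBP2* and *PRKRA* lie near 0 after TMM scaling, with *TARBP2* at 0.26 once the length and GC trend is removed.

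The size of the differences went with transcript length. The longest GENCODE transcript of *PRKRA* and *TARBP2* is 1826 and 1867 nt, and their siControl replicates differed by 0.07 and -0.03 in log2(TPM + 1). For *DICER1* (10331 nt), *AGO2* (14581 nt) and *TNRC6A* (8438 nt) that difference was 1.58, 1.35 and 1.09, but it was smaller for *TNRC6B* (18279 nt), the longest, at 0.87 and for *TNRC6C* (9740 nt) at 0.71. Across the 10 genes, length had a Spearman rho of 0.855 with the difference between siControl replicates and 0.806 with the fold change between groups. These are descriptions over genes that share the same 4 libraries. The reads of *AGO2* fit a counted length of 3500 nt or a multiple of it, so its place on the length axis is uncertain. The same trends were present over 13740 matched features (rho 0.619 and 0.384). In the longest of 10 length bins (median 9392 nt), the median difference was 0.86 both between the siControl replicates and between the groups. *DICER1*, *AGO2*, *TNRC6A* and *TNRC6B* were above that group median, and *TNRC6C* was below it. The siCNOT4 replicates showed no such spread: their difference lay between -0.36 (*DGCR8*) and 0.24 (*AGO2*) for all 10 genes. The part of this length trend in the differences of single genes was tested only through the trend removal given above.

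**Figure D4:**
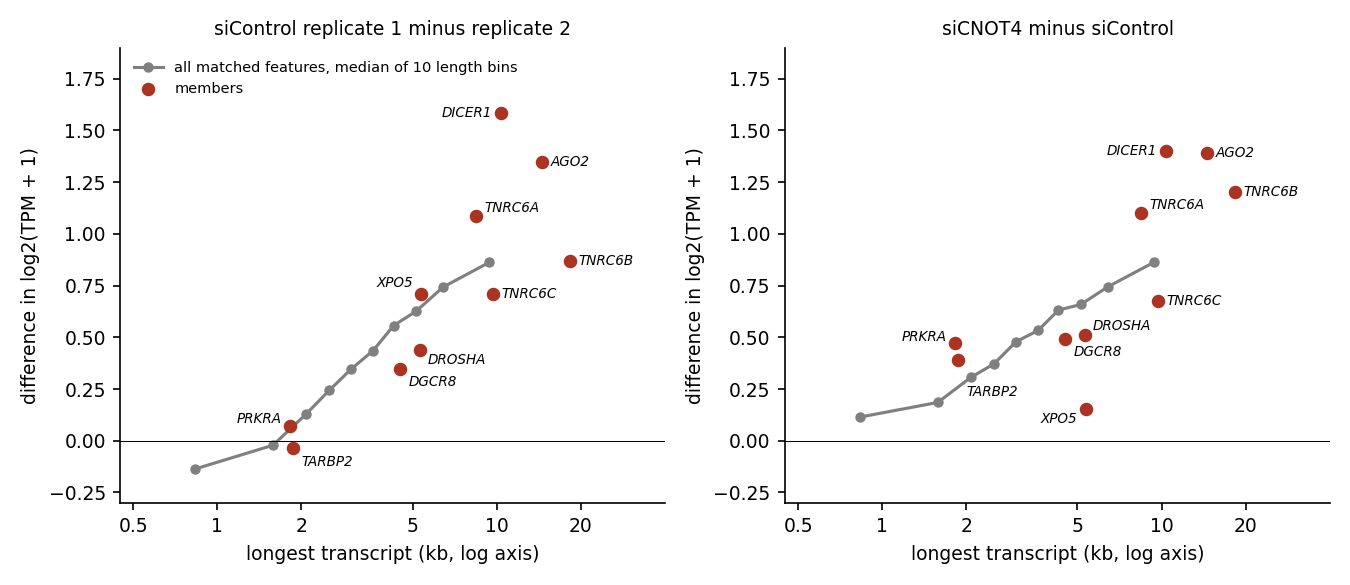
Difference in log2(TPM + 1) against the longest transcript (log axis, kb), between the siControl replicates (left) and between the groups (right), for the silencing genes (red) and as medians of all matched features in 10 length bins (grey). In both panels the long *DICER1* and *AGO2* transcripts lie highest (1.58 and 1.35 on the left, 1.40 and 1.39 on the right), and *XPO5* lies above the grey line on the left and below it on the right.

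Another 61 genes of the pathway were listed in 7 groups by their role, and 59 of them were tested. Of these, 7 were called higher in siCNOT4 and 0 lower at a limma adjusted p under 0.05 (beside 11.3% of all features called higher and 1.30% lower). Their median fold change was 0.51, and that of all features 0.50. After TMM scaling 0 of the 59 were called higher and 3 lower. None of the 7 then passed the threshold, with limma adjusted p values from 0.0506 (*PPP6C*) to 0.655 (*HSP90AA1*), and *FXR1* was negative after trend removal (-0.049). Without either siCNOT4 library in turn 0 of the 59 were called, beside the 2.91% to 3.09% of all features called higher there. Without siControl replicate 1, 49 were called higher and 4 lower (70.9% and 8.73% of all features), and without siControl replicate 2, 34 and 6 (47.2% and 10.3%).

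Among 8 regulators of Argonaute, 2 of 7 tested genes were called higher, beside 11.3% of all tested features. *ANKRD52* and *PPP6C* encode the regulatory and catalytic subunits of a protein phosphatase 6 complex that dephosphorylates AGO2. *ANKRD52* had 32.7 and 18.6 TPM in siControl and 60.4 and 67.8 TPM in siCNOT4 (log2 fold change 1.34, SE 0.30, limma adjusted p 0.0439). *PPP6C* had 40.2 and 30.7 TPM against 81.9 and 81.6 TPM (1.20, SE 0.21, limma adjusted p 0.0299). For both genes the lowest siCNOT4 library was well above the highest siControl library. *ZSWIM8*, a ubiquitin ligase receptor that acts in target-directed miRNA decay, had the highest fold change of the group, 1.44 (limma adjusted p 0.0517), and *P4HA1* the lowest, -0.12 (limma adjusted p 0.710).

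Of 10 genes of the Dicer stage and Argonaute loading, 2 were called higher (11.3% of all tested features were). Both encode chaperones that help load small RNAs. *HSP90AA1* had 1361 and 1288 TPM in siControl and 2282 and 2175 TPM in siCNOT4 (log2 fold change 0.75, SE 0.12, limma adjusted p 0.0256). *HSPA8* had 1320 and 1085 TPM against 2211 and 2078 TPM (0.84, SE 0.14, limma adjusted p 0.0284). The paralog *HSP90AB1* was the lowest of this group at -0.13 (limma adjusted p 0.389; 0.18 after quantile normalization), and the adenosine deaminase gene *ADAR* the highest at 0.89 (limma adjusted p 0.0952).

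Of 16 partners of Argonaute and TNRC6 in repression, 2 were called higher, against 11.3% of all tested features. *EIF4E2*, which encodes the cap-binding 4EHP, had 149 and 183 TPM in siControl and 304 and 304 TPM in siCNOT4 (log2 fold change 0.88, SE 0.16, limma adjusted p 0.0319). *FXR1*, an RNA-binding relative of FMR1, had 52.1 and 40.5 TPM against 91.7 and 86.0 TPM (0.94, SE 0.20, limma adjusted p 0.0422). The deadenylase gene *PAN2* was highest at 1.05 (limma adjusted p 0.0604) and the LIM-domain gene *AJUBA* lowest at -0.67 (limma adjusted p 0.152). *AJUBA* had 14.3 and 9.53 TPM in siControl and 7.81 and 6.24 TPM in siCNOT4, and after TMM scaling its fold change was -1.16 (limma adjusted p 0.0347).

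Of 13 cofactors of the Microprocessor stage, 1 was called higher, against 11.3% of all tested features. *METTL14*, a subunit of the RNA methyltransferase that marks primary miRNAs, had 30.1 and 16.7 TPM in siControl and 54.2 and 55.2 TPM in siCNOT4 (log2 fold change 1.25, SE 0.30, limma adjusted p 0.0492). *METTL3*, its catalytic partner, had 81.7 and 69.9 TPM against 99.6 and 108 TPM (0.45, limma adjusted p 0.104). The splicing and processing factor gene *HNRNPA1* was lowest at -0.51 (limma adjusted p 0.0509). None of the 3 transport genes was called: *RAN*, the GTPase that XPO5 needs to hold its cargo, had 1709 and 1773 TPM in siControl and 1306 and 1291 TPM in siCNOT4 (-0.42, limma adjusted p 0.0577), and the importin gene *IPO8* was highest at 0.86 (limma adjusted p 0.0854). None of 7 tested tailing and turnover genes was called, between *PAPD4* at 0.25 (limma adjusted p 0.574; -0.29 after TMM scaling) and *ZCCHC6* at 1.24 (limma adjusted p 0.0626). The uridylation and let-7 regulator *LIN28B* of this group had 52.6 and 22.1 TPM in siControl and 74.2 and 68.7 TPM in siCNOT4.

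**Figure D5:**
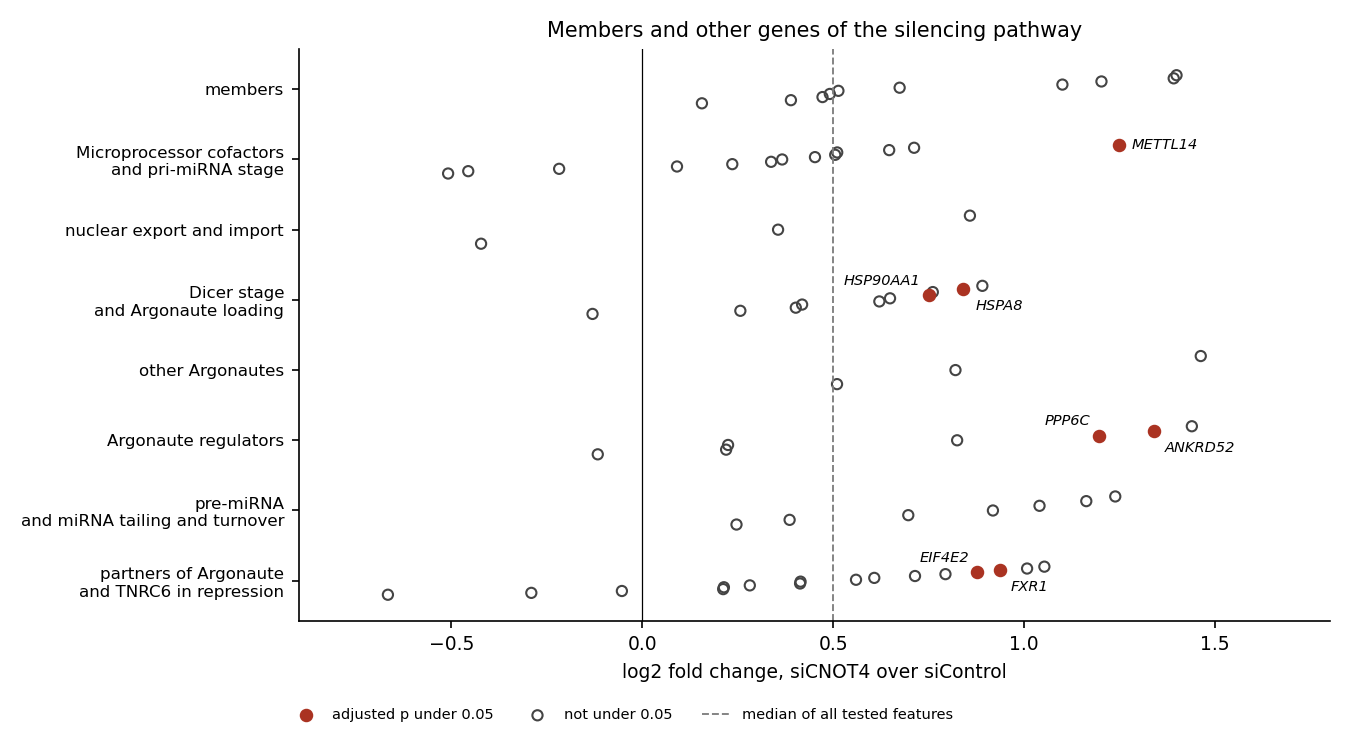
Log2 fold change of siCNOT4 over siControl for the 10 silencing genes and for 59 tested genes of 7 other groups of the pathway, with filled points at a limma adjusted p under 0.05 and a dashed line at the median of all tested features (0.50). The 7 filled points (*METTL14*, *HSP90AA1*, *HSPA8*, *PPP6C*, *ANKRD52*, *EIF4E2* and *FXR1*) all lie to the right of the dashed line.

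The counting of some members is uncertain. On GENCODE 29, exons of *DICER1* overlap the antisense *DICER1-AS1*, those of *XPO5* overlap *POLR1C* and those of *DGCR8* overlap *TRMT2A*, in each case on the opposite strand. The library kit keeps strand, but whether counting used it is not given in the sources used here, nor is the treatment of reads that map to several paralogs.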

How the data were processed

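Poly(A)-selected stranded libraries of total RNA were made from 4 samples, per the labels' protocols. The submitters' processing notes name FastQC 0.11.2, STAR 2.5.3a, featureCounts and the build hg19. The annotation, the strand setting and the handling of multi-mapped reads are not given in the sources used here. The deposited values are TPM, scaled by the authors to 1000000 per library.

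Titles of the samples gave the groups. On log2(TPM + 1), over the 14208 features whose TPM averaged 1 or more, limma 3.58.1 (R 4.3.3; lmFit, eBayes with trend) compared 2 libraries with 2, without covariates, with Benjamini-Hochberg adjustment and a threshold of 0.05. Shares were compared with exact permutation tests. Whole reads were inferred as the smallest whole numbers whose ratios, at the common value of 1 read per library, match the 4 TPM values. They may be off by a common factor: for *XPO5* they imply 1788 nt, against a transcript of 5364 nt. The limma-voom fit used these reads, so its weights and adjusted p values carry the same uncertainty. Intervals cover counting error only, as the reads carry no molecular identifiers and need not be independent molecules. TMM factors were unweighted means after trimming 30% of M and 5% of A values. The fit was tested on simulated data for the siCNOT4 and siControl comparison (14208 genes, 200 changed): 35 were called at a log2 change of 1, and 200 at 3. Of the unchanged genes, 2 and 11 were called. Most changes of 1 were thus missed, so a gene that is not called may still differ. Noise was drawn separately for each gene and changes went up or down at random. The simulated data therefore hold no common shift of all features and no trend with length.

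Genes, lists and tests were chosen with earlier results of these data known. Named are the 10 genes, *CNOT4*, *AGO1*, *AGO3*, *AGO4*, every called pathway gene, the highest and lowest of each list, and cell type markers. *METTL3*, *LIN28B*, *KHSRP*, *RQCD1* and the miRNA features were added after their values were seen. Of the tested features, 13740 matched a GENCODE 29 gene (96.7%). Coordinates are GRCh38.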

Additional observations from a re-analysis of the deposited data

How the results depend on the processing

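Against 1792 called features (1608 higher, 184 lower), the alternatives gave the following counts. A pseudocount of 0.1 gave 558 (478 and 80), no filter 908 (847 and 61), a mean TPM of at least 5 gave 147 (109 and 38), eBayes without trend 756 (703 and 53), median centring 543 (244 and 299) and trend removal 3478 (1676 and 1802). TMM scaling gave 629 higher and 615 lower, quantile normalization 1010 and 1169, and limma-voom on the recovered reads, chosen after seeing the data, 839 and 813. Leaving out 1 library gave 450 to 11311 in all, 413 to 10071 higher and 37 to 1467 lower. Called members (0) became 1 (*XPO5*) after trend removal and 0 to 10 when a library was left out. They were 0 under the remaining alternatives without a block, and *HSP90AA1*, *HSPA8* and *HSP90AB1* had no recovered reads for limma-voom. Called pathway genes (7) became 4 with the pseudocount of 0.1, 1 without a filter, 0 at a mean TPM of 5, 3 with TMM (0 higher, 3 lower), 13 with quantile normalization (9 and 4), 2 with median centring (0 and 2), 13 with trend removal (4 and 9), 8 with limma-voom (3 and 5), 1 without the eBayes trend and 0 to 53 when a library was left out. Reversed after TMM scaling were *DROSHA* (-0.026), *DGCR8* (-0.041), *XPO5* (-0.39), *TARBP2* (-0.15), *PRKRA* (-0.070), *AGO4* (-0.0081) and *PAPD4* (-0.29). With limma-voom these were -0.027, -0.042, -0.39, -0.15, -0.071, -0.0086 and -0.30, and with median centring -0.049, -0.071, -0.41, -0.17, -0.090, -0.052 and -0.32. Under quantile normalization *XPO5* (-0.15), *TARBP2* (-0.052), *AGO4* (-0.059), *PAPD4* (-0.19) and *HSP90AB1* (0.18) reversed, and after trend removal, with the same values with the block, *DROSHA* (-0.15), *DGCR8* (-0.020), *XPO5* (-0.46), *TNRC6C* (-0.072), *AGO1* (-0.062), *AGO4* (-0.27), *PAPD4* (-0.47) and *FXR1* (-0.049). Leaving out 1 library gave -0.20 to 0.51 for *XPO5*, -0.022 to 1.04 for *AGO4* and -0.23 to 0.73 for *PAPD4*, each lowest without siControl replicate 2 and highest without siControl replicate 1. It gave -0.33 to 0.10 for *P4HA1*, which was positive without siControl replicate 1 or siCNOT4 replicate 2. The causes were not tested. Leaving out 1 library moved the group difference in the *TNRC6A* share (0.22 percentage points) to between -1.33 and 1.77. That of *TARBP2* (-1.27) moved to between -2.63 and 0.091. The Argonaute, *TNRC6B* and *TNRC6C* shares did not overlap between the groups, so leaving out 1 library could not change the sign of their differences.

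The groups share replicate numbers, but no label says that a number marks a shared day or culture. Deviations of same-numbered libraries correlated at 0.171 across genes. With the replicate number as a block, 3655 features were called (3342 higher, 313 lower), with 4 members (*DICER1*, *AGO2*, *TNRC6A* and *TNRC6B*) and 24 pathway genes (23 higher, 1 lower). With the replicate block and trend removal there were 4782 (2348 and 2434), with 2 members (*AGO2* and *XPO5*) and 18 pathway genes (5 and 13).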
